A study of Mus musculus with 10 samples.

Results

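The fused-type S100 genes Crnn, Flg2, Flg, Hrnr, Rptn, Tchh and Tchhl1 were examined in epidermis from 3-day-old mice, with and without integrin-linked kinase (ILK). The 7 genes were taken as a named family, and each was matched to the probe set that carried its symbol alone in the annotation of the array. A match was found for 6 of the 7, among 19938 genes with such a probe set. Filaggrin itself, Flg, carried no probe set of its own in this annotation, so its transcript level is not analysed here. Each of the other 6 genes had 1 probe set, and all 6 were tested. ILK-deficient epidermis came from 5 mice with both Ilk alleles floxed (Ilktm1Star) that carried the KRT14-cre transgene heterozygously, and ILK-expressing epidermis from 5 mice with the same transgene and 1 floxed Ilk allele. The mice were littermates, but the labels do not give the litter of each. Both genotypes therefore carried Cre recombinase, which the keratin 14 promoter drives in basal keratinocytes and the cells derived from them, and the ILK-expressing controls also lacked 1 intact Ilk allele in those cells. The epidermis was lifted off with dispase, and RNA from each mouse was hybridised to 1 GeneChip Mouse Gene 1.0 ST Array, which gives 1 log2 value per probe set.

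Fused-type S100 proteins carry an S100-like calcium-binding domain at the amino terminus, followed by a long stretch of repeats. Profilaggrin, hornerin and filaggrin-2 are stored in the granular layer of the epidermis and end up in the cornified layer, where filaggrin bundles keratin filaments and is then broken down into free amino acids. Repetin and cornulin are also proteins of late keratinocyte differentiation, and trichohyalin hardens the inner root sheath and the medulla of the hair, where it is deiminated and cross-linked. The genes lie side by side in the epidermal differentiation complex on mouse chromosome 3, in the order Crnn, Flg2, Flg, Hrnr, Rptn, Tchh and Tchhl1, between gene clusters for other envelope proteins and S100 proteins.

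The promoters of the members are shown because neighbours within the family gave very different values, described below. Each line gives the 130 bases ahead of the RefSeq gene start (GRCm38.p6, plus strand), with matches to TGANTCA, a relaxed form of the AP-1 site in which the central base is free, and to the TATA box TATAAA in capitals. The stretches lie at chr3:93442200-93442329 for Tchh, chr3:93144659-93144788 for Crnn, chr3:93468624-93468753 for Tchhl1, chr3:93393569-93393698 for Rptn, chr3:93197143-93197272 for Flg2, chr3:93319619-93319748 for Hrnr and chr3:93273416-93273545 for Flg.
Tchh: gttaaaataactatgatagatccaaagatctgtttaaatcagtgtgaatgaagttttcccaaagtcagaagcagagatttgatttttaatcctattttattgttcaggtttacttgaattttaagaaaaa
Crnn: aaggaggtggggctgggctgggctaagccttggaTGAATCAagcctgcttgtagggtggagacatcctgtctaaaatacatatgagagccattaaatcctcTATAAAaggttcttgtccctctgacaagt
Tchhl1: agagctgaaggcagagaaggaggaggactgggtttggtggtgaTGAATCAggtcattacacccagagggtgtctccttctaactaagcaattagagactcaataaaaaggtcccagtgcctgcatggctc
Rptn: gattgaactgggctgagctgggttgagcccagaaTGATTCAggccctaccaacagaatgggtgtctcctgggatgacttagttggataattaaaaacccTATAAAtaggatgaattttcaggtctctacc
Flg2: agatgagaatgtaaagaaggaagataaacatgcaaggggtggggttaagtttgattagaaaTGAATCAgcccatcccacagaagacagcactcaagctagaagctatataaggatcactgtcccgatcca
Hrnr: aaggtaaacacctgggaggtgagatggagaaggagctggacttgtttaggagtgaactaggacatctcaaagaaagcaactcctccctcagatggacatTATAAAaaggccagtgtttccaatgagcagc
Flg: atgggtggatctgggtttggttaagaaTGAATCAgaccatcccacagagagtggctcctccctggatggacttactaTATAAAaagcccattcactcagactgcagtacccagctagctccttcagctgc

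AP-1 factors are dimers of Jun and Fos proteins that act at many genes of keratinocyte differentiation. On either strand, TGANTCA was present in the 300-base promoters (250 bases before to 50 after the start) of 5 of the 7 genes, namely Crnn, Flg2, Flg, Rptn and Tchhl1, and in 7.81% of all 32851 promoters of the table. In these 5 promoters the match ended between 63 and 97 bases ahead of the start. Its central base was A in Crnn, Flg2, Flg and Tchhl1 and T in Rptn, so that none had the C or G of the AP-1 consensus. TATAAA was present in 4 of 7 (Crnn, Flg, Hrnr and Rptn) and in 13.6% of all promoters, and no match to it overlapped one to TGANTCA. The homeodomain core TAATTA was found in Crnn and Rptn (5.29% of all promoters). The TCF/LEF core CTTTGA was found in Flg2, Hrnr and Tchh (16% of all), and the GATA motif AGATAA in Flg2 and Tchh (11.2% of all), where 1 match of each in Tchh shared bases. These matches are a description of the letters in this window, and no binding was measured.

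In ILK-deficient epidermis the family divided. Tchh and Crnn transcripts were 16.9-fold and 8.63-fold lower than in ILK-expressing epidermis, and Tchhl1 was 3.05-fold lower without passing the test. Rptn, Flg2 and Hrnr had overlapping values in the 2 genotypes. Of the 6 members, 2 were called lower and none higher at an adjusted p under 0.05 (limma, adjusted over all 32046 probe sets tested), while 0.97% of all probe sets were called lower and 2.81% higher. For 3 members the arrays of both genotypes were fully separate, all lower in ILK-deficient epidermis, against 1.96% of all probe sets without overlap in this direction and 4.37% in the other. The median log2 fold change was -1.05 over the 6 members and 0.0031 over all probe sets tested. RNA of a whole tissue cannot tell fewer cells of a type from less RNA per cell.

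Tchh encodes trichohyalin of the inner root sheath. Its log2 values were 6.84, 7.69, 8.38, 7.48 and 7.40 in ILK-deficient replicates 1 to 5, against 11.12, 11.63, 10.64, 12.82 and 11.97 in ILK-expressing replicates 1 to 5. No ILK-deficient array reached the lowest ILK-expressing array, and a gap of 2.26 lay between them. ILK-deficient arrays averaged 7.56 ± 0.557 and ILK-expressing arrays 11.64 ± 0.832 (SD, n = 5 each). The log2 fold change was -4.08 (95% interval -4.94 to -3.21, standard error 0.392) with an adjusted p = 0.00117 from limma, the 6th largest fall of all 32046 probe sets. An exact permutation test gave p = 0.00794, two-sided, the smallest that 5 arrays against 5 allow.

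Crnn encodes cornulin, which is found in the granular and cornified layers. Its log2 values were 7.44, 7.42, 7.72, 7.75 and 7.19 in ILK-deficient replicates 1 to 5, against 9.64, 10.34, 9.02, 12.56 and 11.49 in ILK-expressing replicates 1 to 5. The ILK-deficient arrays lay close together, while the ILK-expressing arrays spread over 3.54 log2 units, with replicates 4 and 5 on top. ILK-deficient arrays averaged 7.50 ± 0.234 and ILK-expressing arrays 10.61 ± 1.42 (SD, n = 5 each), and only 0.203% of all probe sets had a larger SD among the ILK-expressing arrays. Crnn thus changed by -3.11 log2 units (95% interval -4.35 to -1.86, standard error 0.563), with an adjusted p = 0.0158 from limma and p = 0.00794 by exact permutation. A plain analysis of variance, with the adjustment over all probe sets tested that is used here, gave an adjusted p = 0.0549, which does not pass. The methods name analysis of variance with a p value and a fold threshold, and no such adjustment, so this is not the authors' own criterion. With the 4 ILK-deficient and 3 ILK-expressing arrays whose label code begins with a D without a prime, a code not explained in the sources used here, Crnn was 4.25-fold lower (adjusted p = 0.0199 from limma). Left out were ILK-deficient replicate 5 and the highest ILK-expressing arrays, replicates 4 and 5. The part of this code in the spread of the ILK-expressing arrays was not tested.

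Tchhl1 encodes a protein similar to trichohyalin. Its log2 values were 7.62, 7.33, 7.70, 7.72 and 7.28 in ILK-deficient replicates 1 to 5, against 8.44, 8.65, 8.13, 10.76 and 9.70 in ILK-expressing replicates 1 to 5. The genotypes did not overlap, but the gap of 0.417 was small beside the range of 2.63 among the ILK-expressing arrays, where replicates 4 and 5 again stood highest. ILK-deficient arrays averaged 7.53 ± 0.211 and ILK-expressing arrays 9.14 ± 1.08 (SD, n = 5 each). The change of -1.61 log2 units (95% interval -2.56 to -0.65, standard error 0.432) had an adjusted p = 0.073 from limma and did not pass, with p = 0.00794 in the exact permutation test. Without ILK-expressing replicate 3, the lowest of its genotype, it passed at -1.86 (adjusted p = 0.0491 from limma). In the arrays with the D code the difference was 1.76-fold (adjusted p = 0.0536 from limma).

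Rptn encodes repetin, an envelope precursor of stratified epithelia. Its log2 values were 7.46, 8.06, 8.51, 8.59 and 8.07 in ILK-deficient replicates 1 to 5, against 7.93, 8.55, 8.63, 8.47 and 9.53 in ILK-expressing replicates 1 to 5. All but 1 of the ILK-deficient arrays lay within the range of the ILK-expressing arrays. Rptn changed by -0.49 log2 units (95% interval -1.12 to 0.15, standard error 0.287), with an adjusted p = 0.497 from limma and p = 0.238 by exact permutation. Within a genotype Rptn did vary, with an SD of 0.449 in ILK-deficient and 0.575 in ILK-expressing epidermis, larger than in all but 4.25% and 3.87% of probe sets.

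Flg2 encodes filaggrin-2 and Hrnr encodes hornerin, both related to profilaggrin in their repeats. The Flg2 log2 values were 12.67, 12.16, 12.00, 12.08 and 12.68 in ILK-deficient replicates 1 to 5, against 12.22, 12.09, 11.59, 12.27 and 12.91 in ILK-expressing replicates 1 to 5. The ILK-deficient arrays all lay within the range of the ILK-expressing arrays, and the log2 fold change was 0.10 (95% interval -0.41 to 0.61, adjusted p = 0.924 from limma). The Hrnr log2 values were 13.47, 13.33, 13.44, 13.44 and 13.48 in ILK-deficient replicates 1 to 5, against 13.64, 13.43, 13.37, 13.51 and 13.48 in ILK-expressing replicates 1 to 5. Hrnr was the steadiest member, with an SD of 0.0588 in ILK-deficient and 0.1 in ILK-expressing epidermis. Hrnr changed by -0.06 log2 units (95% interval -0.20 to 0.08, adjusted p = 0.802 from limma), so that the interval in folds ran from 1.14-fold lower to 1.06-fold higher. Both probe sets lie high in the range of the arrays, whose highest values were 14.71 to 16.66, and compression of changes at such values was not tested. Flg, Flg2 and Hrnr consist largely of repeats, and whether their probes bind more than 1 of these transcripts was not tested.

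**Figure D1:**
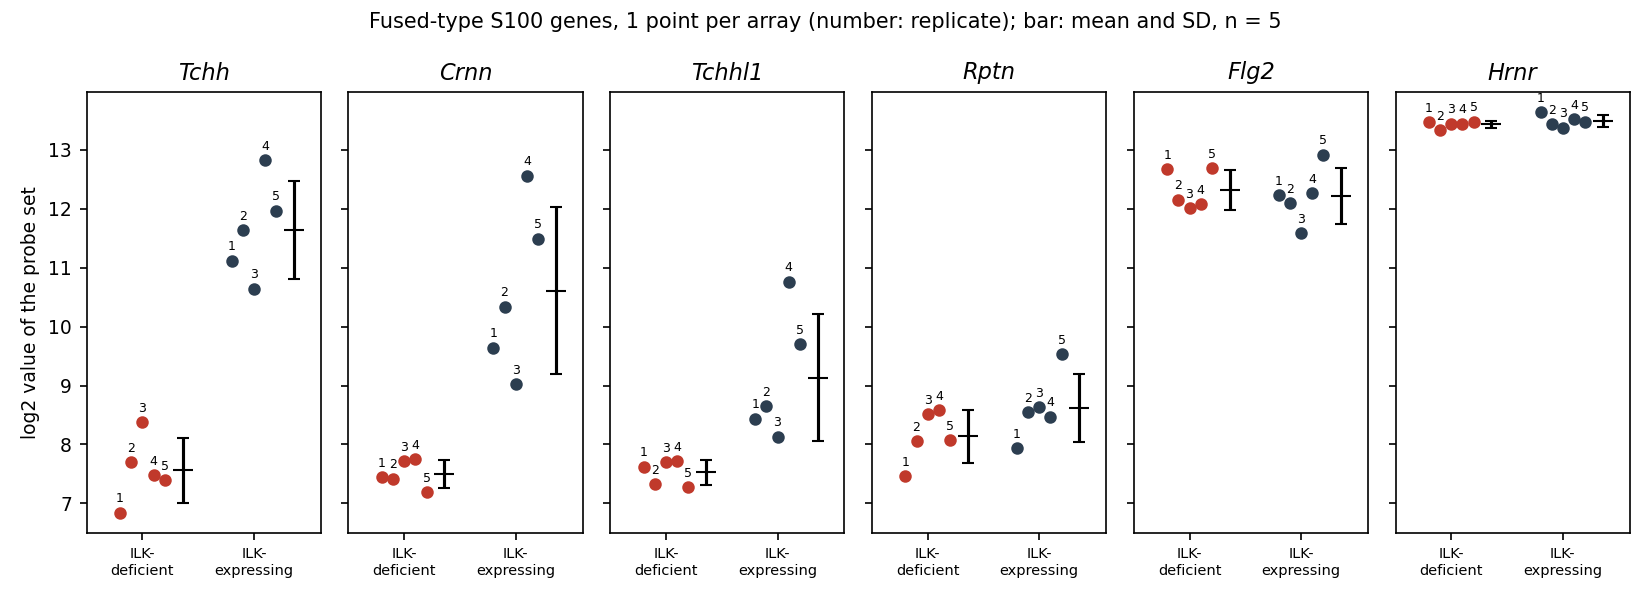
Log2 value of the probe set (vertical axis) of 6 fused-type S100 genes on 5 ILK-deficient and 5 ILK-expressing arrays, 1 point per array with its replicate number, and the mean with SD to the right of the points. Tchh, Crnn and Tchhl1 do not overlap between the genotypes, whereas Rptn, Flg2 and Hrnr do, and ILK-expressing replicates 4 and 5 are the highest of their genotype for Tchh, Crnn and Tchhl1.

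To test whether members changed by unequal amounts, the log2 difference between 2 members was taken within each array and compared between genotypes, for all 15 pairs. Of these, 11 pairs differed at an adjusted p under 0.05 (exact permutation test, two-sided, Benjamini-Hochberg over the 15 pairs). Tchh changed by 4.18 more than Flg2 and by 4.02 more than Hrnr on the log2 scale, towards lower values in ILK-deficient epidermis (adjusted p = 0.0119 for each, exact test). Relative to Tchh, its direct neighbour on the chromosome, Rptn was higher by 3.59 in ILK-deficient than in ILK-expressing epidermis, and Flg2, the next gene to Crnn, was higher by 3.21 relative to Crnn (adjusted p = 0.0119 for each, exact test). Tchh fell by 2.47 more than Tchhl1, and Crnn also fell more than Tchhl1 (adjusted p = 0.0119 for each, exact test). Tchh, Crnn and Tchhl1 averaged 7.56, 7.50 and 7.53 in ILK-deficient arrays, so in number their unequal changes lie mostly in their ILK-expressing values. This is arithmetic and does not show that these genes had a like level. The pairs that did not pass were those among Flg2, Hrnr and Rptn, with differences of 0.157 to 0.587, and Crnn with Tchh, at 0.969 (adjusted p = 0.0595, exact test), which does not show that these members changed alike. These differences compare changes and not levels, since the level of 1 probe set cannot be set against that of another, and the table holds no detection call that would show how near to background a value lies.

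**Figure D2:**
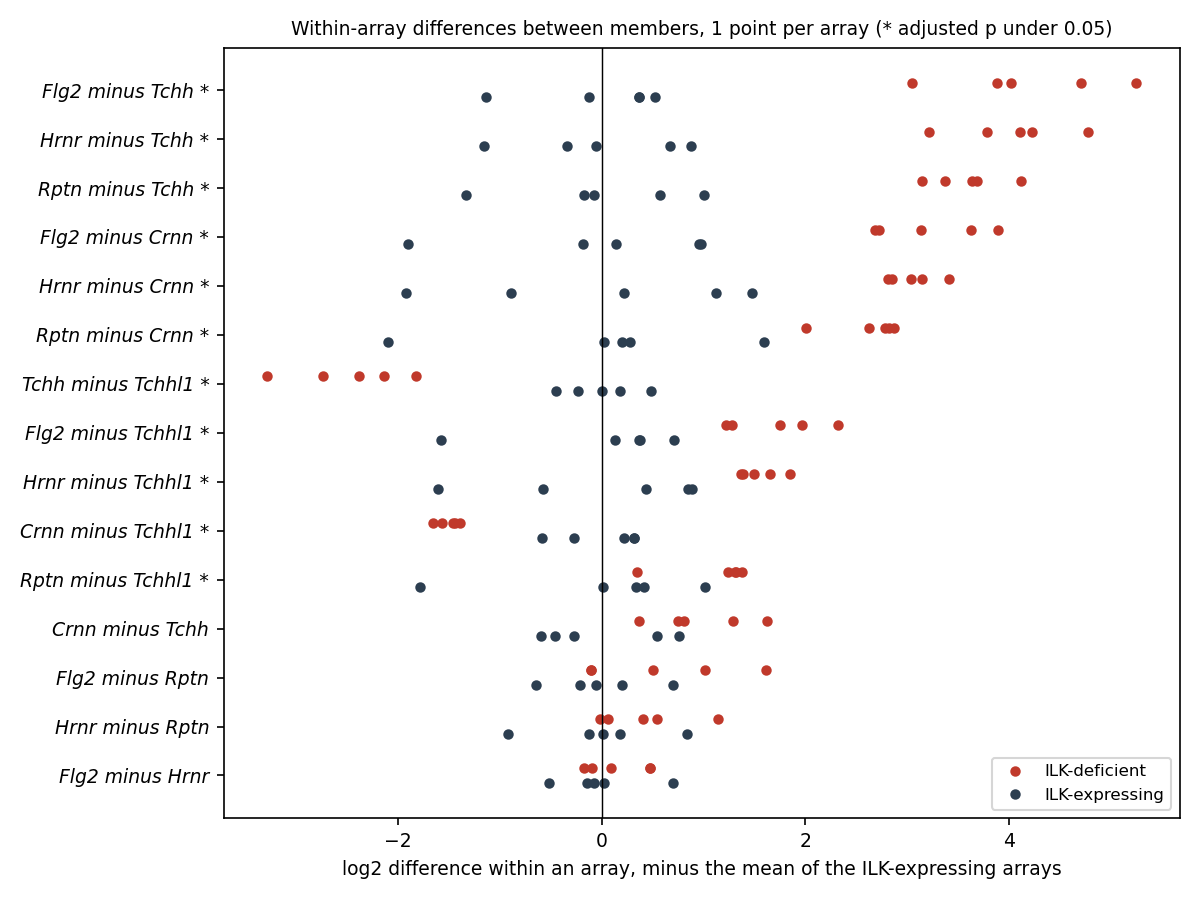
Log2 difference between 2 members within an array, minus the mean of the ILK-expressing arrays (horizontal axis), for 15 pairs of members, 1 point per array; ILK-deficient arrays are drawn above ILK-expressing arrays in each row. A star marks the 11 pairs with an adjusted p under 0.05, the largest difference being that of Flg2 and Tchh at 4.18.

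Some genes around the family on chromosome 3 were also lower. From S100a1 to S100a10, RefSeq lists 70 protein-coding genes, of which 60 had a probe set and 49 outside the family were tested. Of these 49, 3 were lower in ILK-deficient epidermis (6.12%, against 0.97% of all probe sets) and none was higher, and the median log2 fold change of the 49 was -0.12. For 6 of the 49 the genotypes did not overlap, all lower in ILK-deficient epidermis (12.2%, against 1.96%). The 3 were Prr9, a proline-rich protein gene, at -4.34 (adjusted p = 0.00211 from limma), S100a3, an S100 gene of hair cuticle cells, at -2.92 (adjusted p = 0.00304), and Pglyrp4, a peptidoglycan recognition protein gene, at -0.90 (adjusted p = 0.0326). S100a11, a widely expressed S100 gene and the next gene after Tchhl1 in the plot of chromosomal order, was at -0.07 (adjusted p = 0.689 from limma), and Crct1, the tested gene ahead of Crnn, at -0.04 (adjusted p = 0.947).

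**Figure D3:**
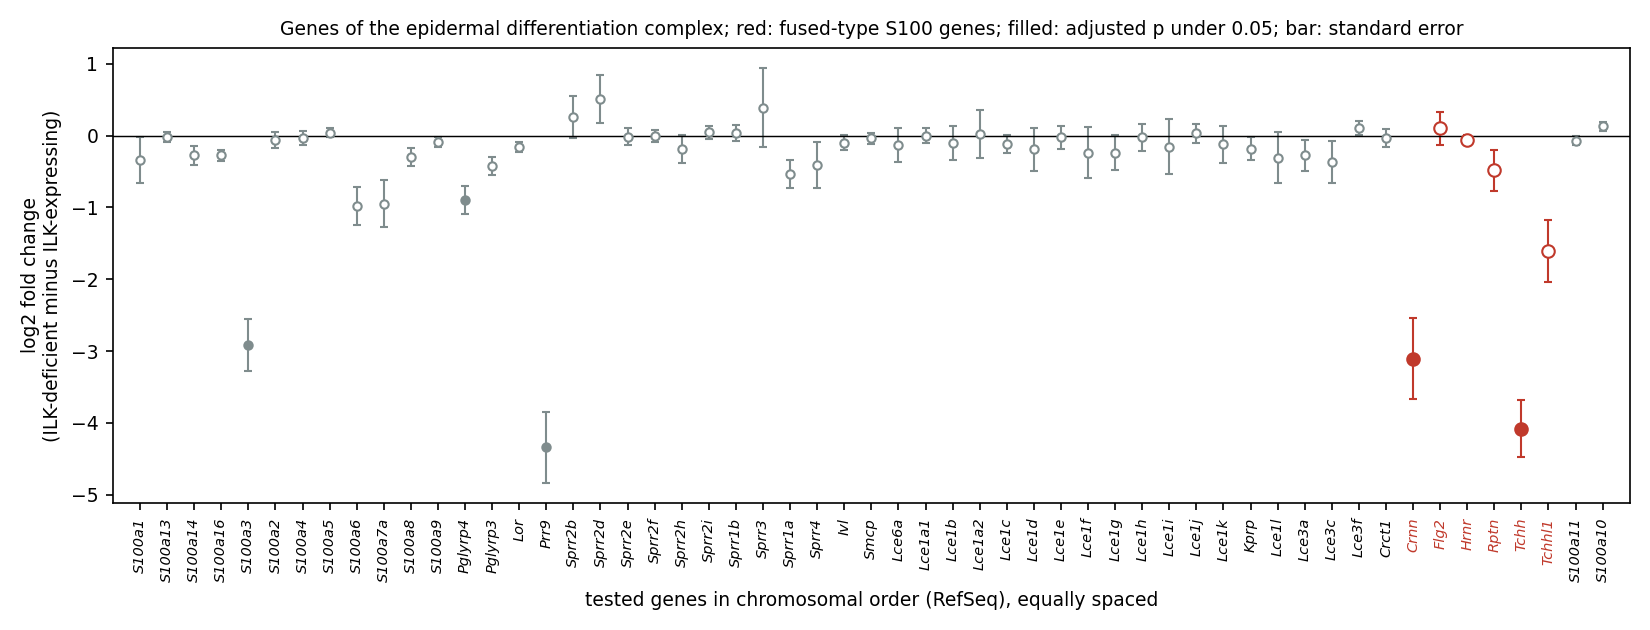
Log2 fold change, ILK-deficient minus ILK-expressing, with its standard error (vertical axis) for the tested genes from S100a1 to S100a10 in RefSeq order along chromosome 3, equally spaced; red points are fused-type S100 genes and filled points have an adjusted p under 0.05. Crnn and Tchh, at -3.11 and -4.08, are separated by Flg2, Hrnr and Rptn, which lie between 0.10 and -0.49.

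A list of envelope precursor and other genes of the complex (small proline-rich, late envelope and others) held 36 tested genes. Of these, 2 were lower (5.56%, against 0.97% of all probe sets) and none higher, the median being -0.11. Both, Prr9 and the peptidoglycan recognition protein gene Pglyrp4, are also counted among the neighbours above. Lce1a1, a late cornified envelope gene, was at 14.05 in both genotypes (adjusted p = 0.999 from limma), and Crct1 is given above. Of the 13 single-domain S100 genes listed, S100a3 alone was called (7.69%, against 0.97%), but 4 of the 13 were lower without overlap of the genotypes (30.8%, against 1.96%). Beside S100a3 these were S100a6, or calcyclin, at -0.98 (adjusted p = 0.0701 from limma), S100a7a at -0.95 (adjusted p = 0.167) and S100a16 at -0.28 (adjusted p = 0.0864), none of which passed. The abundant S100a10, a partner of annexin, was at 0.13 (adjusted p = 0.362 from limma). Of 7 tested granular layer genes outside the complex none was called in either direction, and all 7 log2 fold changes lay between -0.38 and -0.04. For 1 of the 7, Casp14, the genotypes did not overlap, lower in ILK-deficient epidermis (14.3%, against 1.96%). Casp14 is also in the list of profilaggrin processing below. Krt1, a keratin of the suprabasal layers, averaged 14.05 ± 0.0542 in ILK-deficient arrays and 14.12 ± 0.105 in ILK-expressing arrays (SD, n = 5 each; adjusted p = 0.753 from limma), and its partner Krt10 was at -0.04 (adjusted p = 0.858).

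Profilaggrin is cut by proteases and deiminated before it is degraded. Of 15 genes of profilaggrin processing, 2 were lower (13.3%, against 0.97% of all probe sets) and none higher, with a median of -0.24. For 6 of the 15 the genotypes did not overlap, each time lower in ILK-deficient epidermis (40%, against 1.96%). Padi3, a peptidylarginine deiminase that also acts on trichohyalin, averaged 7.90 ± 0.0851 in ILK-deficient arrays and 10.09 ± 1.25 in ILK-expressing arrays (SD, n = 5 each). It changed by -2.19 log2 units with a standard error of 0.49 (adjusted p = 0.0355 from limma). Padi1, another deiminase of the epidermis, was at -0.95 without overlap of the genotypes and did not pass (adjusted p = 0.11 from limma). Spink5, an inhibitor of epidermal kallikreins, was lower by 0.411 (adjusted p = 0.0308 from limma), which is its change on the log2 scale. Casp14, the caspase that takes part in filaggrin breakdown, was at -0.24 (adjusted p = 0.0738 from limma) without overlap of the genotypes, and Asprv1, an aspartic protease that cuts profilaggrin, at -0.13 (adjusted p = 0.355).

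The inner root sheath genes fell as a group with Tchh. Of 13 genes of the inner root sheath and of trichohyalin modification, 11 were lower in ILK-deficient epidermis (84.6%, against 0.97% of all probe sets) and none was higher, with a median log2 fold change of -2.92. The 11 include S100a3, described above as a gene of hair cuticle cells, and Padi3. Both are also counted in lists above, so the counts of these lists are not separate from each other. The list was known from earlier results of these data to be lower, so its count is not independent evidence. Krt27 and Krt72, keratins of the sheath, changed by -3.98 (adjusted p = 0.00211 from limma) and -3.75 (adjusted p = 0.00279). The exceptions were Gata3, a transcription factor of the sheath and of the epidermis, at 0.16 (adjusted p = 0.314), and the keratin Krt74 at -0.63 (adjusted p = 0.149). Averaged over the 8 keratins of the list, the log2 value was 7.55 ± 0.381 in ILK-deficient arrays and 10.68 ± 0.992 in ILK-expressing arrays (SD, n = 5 each).

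Each member was also set against these 8 keratins within each array. The difference of Crnn from their mean was -0.353 to 0.437 in ILK-deficient and -0.447 to 0.636 in ILK-expressing arrays, a change of 0.0158 (adjusted p = 0.944, exact permutation test, over 6 members), which does not show that they changed alike. The mean includes Krt74, at only -0.63 with values down to a linear 44.7, and Krt26, with values down to 49.3. The size of each difference depends on this choice of keratins, and a mean without Krt74 was not tested. Tchh changed by -0.953 relative to the mean of the 8 keratins, Tchhl1 by 1.52, Rptn by 2.64, Hrnr by 3.07 and Flg2 by 3.23 (adjusted p = 0.00952 for each, exact permutation test). The keratin mean itself changed by -3.12 without overlap of the genotypes, which was known beforehand. A member with little change is then separated by the keratins alone. For Rptn, Hrnr and Flg2 these p values therefore restate the keratin fall and are no evidence on the members themselves. In ILK-deficient arrays Tchh, Crnn, Tchhl1 and the keratin mean averaged 7.56, 7.50, 7.53 and 7.55. In ILK-expressing arrays they averaged 11.64, 10.61, 9.14 and 10.68, so in number their unequal changes lie mostly in the ILK-expressing values. Single keratins averaged from 5.69 (Krt74) to 9.13 (Krt71) in ILK-deficient arrays, so the like averages do not show a shared level or floor. Whether the ILK-deficient values lay near background, which would limit the falls seen, was not tested. Among the ILK-expressing arrays, replicate 4 had the highest keratin mean, followed by replicates 5, 2, 1 and 3, and Tchh, Crnn and Tchhl1 each ranked the 5 arrays in that same order, as did 0.793% of all probe sets tested. Among the ILK-deficient arrays only Tchh of the 6 members shared the order of the keratin mean, as did 0.69% of all probe sets. Rptn, Flg2 and Hrnr ranked the ILK-expressing arrays in other orders, with replicate 5 highest for Rptn and Flg2 and replicate 1 for Hrnr. Replicates 4 and 5, first in the order of the ILK-expressing arrays, are those of that genotype outside the plain D code described above. The part of that code in the order was not tested. The order was noticed in these data, and the 2 genotypes form separate clusters with 5 arrays each, too few for a correlation within a genotype.

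**Figure D4:**
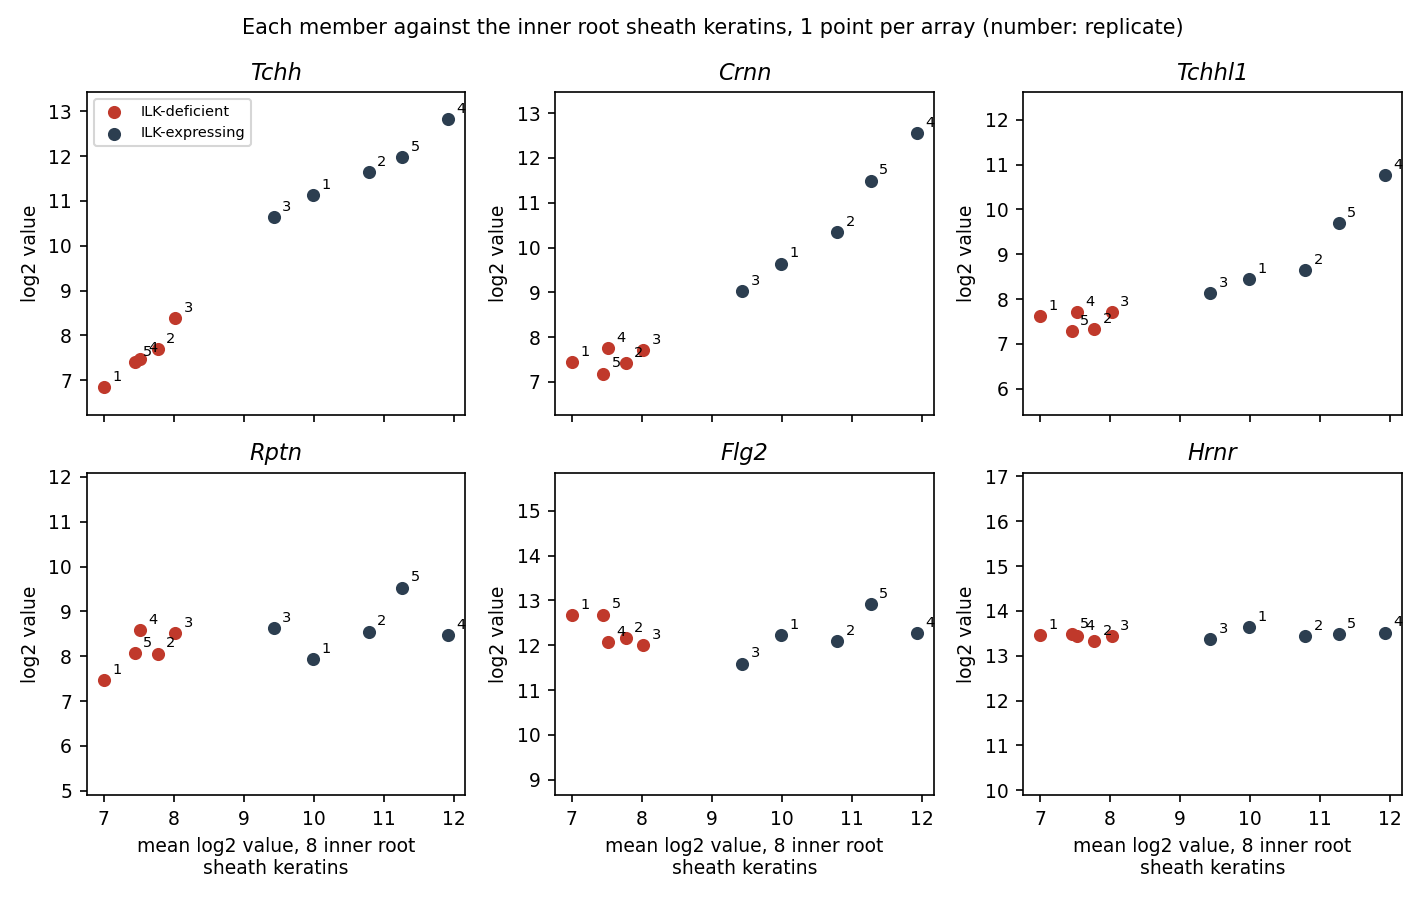
Log2 value of each member (vertical axis, all panels spanning the same number of log2 units) against the mean log2 value of 8 inner root sheath keratins (horizontal axis), 1 point per array with its replicate number. Among the ILK-expressing arrays, Tchh, Crnn and Tchhl1 are higher where the keratin mean is higher, while Hrnr stays between 13.37 and 13.64 and Flg2 between 11.59 and 12.91.

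The genes with the most similar profiles were sought for the 3 members that differed by 1 log2 unit or more, by the root mean square difference between centred log2 values over the 10 arrays, among 18120 genes. For Crnn the closest was Dsg4, which encodes a desmoglein of hair, at 0.153 log2 units, followed by Krt26, an inner root sheath keratin (0.248), Crym, a thyroid hormone-binding protein gene (0.259), Calhm4 (0.283) and the aspartic protease gene Ctse (0.286), where the median over all genes was 1.80. For Tchh the closest were Krt27 (0.197) and Krt72 (0.306), followed by Prr9 (0.317), the hair keratin-associated protein gene Krtap8-1 (0.346) and the hair keratin Krt33a (0.355), against a median of 2.14. For Tchhl1 they were Efhd1 (0.195), Krtap19-4 (0.267), Gm10229 (0.272), Csdc2 (0.274) and Krtap16-3 (0.275), against a median of 1.07, and none of these 5 was called by limma. Between members, the closest of the 3 were Crnn and Tchh, at 0.695. Most genes barely changed, so a gene with a fall of like size tends to lie below these medians, whatever its order of arrays.

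Of 21 tested transcription factors of epidermal differentiation, 2 were higher (9.52%, against 2.81% of all probe sets) and none lower, with a median of 0.0002. Trp63, the master factor of stratified epithelia, rose by 0.35 (adjusted p = 0.0204 from limma), and Tfap2c, an AP-2 factor, rose by 0.35 (adjusted p = 0.0241). The abundant Zfp750, a differentiation factor, was at -0.05 (adjusted p = 0.877 from limma), and Tfap2a at 0.20 (adjusted p = 0.188). The largest differences of the list were those of the AP-1 genes Fos, at 0.90 (adjusted p = 0.258 from limma), and Jun, at 0.71 (adjusted p = 0.13), which did not pass.

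Ilk has 1 value for the whole gene, although Cre removes only some of its exons, and this value averaged 8.94 ± 0.118 in ILK-deficient arrays and 9.17 ± 0.181 in ILK-expressing arrays (SD, n = 5 each), a change of -0.23 log2 units (adjusted p = 0.253 from limma). Which of its probes lie in the deleted exons was not examined here. No 2 arrays held identical values. Of the keratinocyte markers Krt5, Krt14, Krt15, Krt1 and Krt10, whose lowest value on any array was at a linear 4941, Krt14 was lower by 0.235 on the log2 scale (adjusted p = 0.0452 from limma), and the other 4 did not pass. Of 5 melanocyte markers 3 were higher (60%, against 2.81% of all probe sets) and none lower. For 4 of the 5 the genotypes did not overlap, each time higher in ILK-deficient epidermis, against 4.37% of all probe sets. Tyrp1 had the largest change of the 5, at 2.23, and did not pass (adjusted p = 0.0511 from limma). The summed linear value of the 5 was 5833 to 11809 in ILK-deficient and 1268 to 3853 in ILK-expressing epidermis. No tested marker of fibroblasts (6), endothelium (3), Langerhans cells (3), T cells (2), fat (3), skeletal muscle (2) or other stratified epithelium (3) was called in either direction. All 6 fibroblast markers had log2 fold changes above 0, from 0.08 to 0.77 (Dcn). Col1a2 was higher by 0.40 without overlap of the genotypes and did not pass (adjusted p = 0.0777 from limma). The summed fibroblast markers were 3598 to 6623 in ILK-deficient and 1537 to 5503 in ILK-expressing epidermis. The part of these cells in the values of the family was not tested.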

How the data were processed

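RNA from whole epidermis of 10 mice, 5 ILK-deficient and 5 ILK-expressing, was measured on 1 array each. The deposited table holds log2 values, which the authors made by background adjustment, quantile normalization and summary over the probes of a probe set. Both RMA and GC-RMA appear in the methods, RMA and Partek in the submitters' processing notes, and the sources do not say which produced the deposited values. Groups came from the sample titles. The values were used as deposited.

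A probe set was kept if 5 or more of the 10 arrays reached a linear value of 50, which left 32046 of 35556. The genotypes were compared in R 4.3.3 with limma 3.58.1 (lmFit, eBayes, no block or covariate), with Benjamini-Hochberg adjustment over all kept probe sets and a threshold of 0.05. A fold change is ILK-deficient over ILK-expressing. Exact permutation tests ran over the 126 divisions of 10 arrays into 5 and 5. The limma comparison was tested on simulated arrays before use. These had normal noise with the same SD in both genotypes, so the unequal spread of Crnn and Tchhl1 was not covered. The number of arrays limits the precision, and p values measure the spread between mice.

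The members and the gene lists were chosen with earlier results of these data known. The genes named are the members, up to 2 falls, 2 rises and 2 abundant genes that did not pass from each list, and the 5 genes of most similar profile, beside exceptions, further genes of the lists and cell type markers named after their values were seen. The comparison with inner root sheath keratins within arrays was added after the data were seen. Promoter sequences are from RefSeq (GRCm38.p6), where all 7 genes matched by symbol. The alternatives changed the filter, a floor, the scaling, the test, a block or the arrays used.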

Additional observations from a re-analysis of the deposited data

Results flagged for a closer look

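Among 46 named genes, each in 2 genotypes of 5 arrays, 4 groups held an array that stood apart from the others of its genotype by more than 0.71 of the whole range, where chance flags about 1 group in 20. Hrnr was at 13.33 in ILK-deficient replicate 2 and at 13.44 to 13.48 in the other ILK-deficient arrays. S100a11 was at 13.73 in ILK-expressing replicate 3 and at 13.54 to 13.57 in the others of that genotype. Zfp750 was at 11.77 in ILK-deficient replicate 4, below 12.03 to 12.10 in the others. Gm10229, one of the genes closest to Tchhl1 in profile, was at 6.56 in ILK-deficient replicate 4, above 6.18 to 6.24 in the others. None of the 4 concerned Tchh, Crnn or Tchhl1.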

How the results depend on the processing

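Under 20 alternatives, Tchh was called lower in all, at 11.6-fold to 20.1-fold, and Crnn in 19, at 4.25-fold to 11.4-fold, with the exception of the plain analysis of variance, where its log2 fold change of -3.11 had an adjusted p = 0.0549 and 1 member instead of 2 was called. Leaving out 1 array gave -4.33 to -3.78 for Tchh, -3.51 to -2.62 for Crnn, -1.86 to -1.20 for Tchhl1, -0.66 to -0.26 for Rptn, -0.056 to 0.28 for Flg2 and -0.08 to -0.02 for Hrnr. In these fits 2 to 3 members were called lower and none higher. Tchhl1 passed only without ILK-expressing replicate 3, at -1.86, and Flg2 changed sign only there, at -0.056. Rptn, Flg2 and Hrnr were called under no alternative.

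Among all probe sets tested, 1211 were called. This count was 686 with the plain analysis of variance, 294 with the 7 arrays of the plain D code (fewer arrays), 608 with the replicate block, and 597 to 1010 without 1 array. It fell by more than 1.5 times without ILK-deficient replicate 1 (723), 2 (756) or 5 (597) and without ILK-expressing replicate 2 (797) or 4 (651). Deviations of same-numbered arrays from their group means correlated at -0.296 to 0.113 over all probe sets tested. Over all probe sets this gave no sign that the replicate numbers pair the arrays, but cannot exclude it. Under the block the calls of Tchh and Crnn were kept. The standard error went from 0.229 to 0.126 for Flg2, from 0.287 to 0.215 for Rptn and from 0.432 to 0.383 for Tchhl1. It went from 0.563 to 0.505 for Crnn, and was slightly larger for Tchh (0.392 to 0.397) and Hrnr (0.063 to 0.0668). Whether this reflects a pairing of the arrays was not tested. Of the 15 pairs of members, 10 to 11 passed without 1 array and 11 with values under 50 raised to 50. The mean over several probe sets of a gene gives no other value, as each member has 1.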
